A study of Homo sapiens with 20 samples.

Results

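The LDL receptor family was followed through a panel of melanoma lines by way of 9 of its genes, namely VLDLR, LRP8, LRP1, LRP1B, LRP2, LRP4, LRP5, LRP6 and LRP12. A row of the expression table was taken as a member when the array's gene annotation gave it one of these symbols. This found 9 rows for 8 of the genes, out of 18384 features in all. VLDLR, LRP8, LRP1, LRP1B, LRP2, LRP6 and LRP12 each had a row of their own. The other 2 rows, 3337516 and 3955627, carry the symbols LRP5 and LRP5L together and are called by their identifiers, because LRP5 cannot be told apart from LRP5L in them. LRP4 was not analysed here. The set was chosen by the log2 difference in VLDLR between the NME1-E5A line and the parent line, which was already known, so VLDLR levels that involve either line are given below as a description, with no test.

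WM793 is an established cell line from a vertical growth phase melanoma, and NME1 encodes a nucleoside diphosphate kinase that was identified as a metastasis suppressor. RNA was measured on Affymetrix Human Exon 1.0 ST arrays in 5 lines after 3 days of growth. The groups were WM793 itself (Parent) and 4 derivatives labelled as overexpressing NME1, either as the wild-type sequence (NME1-wild-type) or as a mutant, namely E5A (NME1-E5A), K12Q (NME1-K12Q) or P96S (NME1-P96S). There were 20 arrays, 4 to a line, described in the design as technical replicates. Each construct was therefore present as 1 line, and the p-values below measure only the spread between arrays of a line, not between independently made lines. All 5 lines share the WM793 background, and the sources used here do not state the promoter behind the constructs or whether a line is a clone. A higher level in RNA from a whole culture does not tell more RNA per cell from more cells that make it.

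Values are log2 expression as normalised by the authors, so a difference of 1 is a doubling of signal. The arrays had medians between 6.27 and 6.50, and their interquartile ranges (the spread of all values on an array) lay between 2.19 and 3.15. The narrowest arrays were replicate 2 of Parent, replicate 3 of NME1-P96S and replicate 2 of NME1-K12Q. The row for NME1, which it shares with the NME1-NME2 readthrough, averaged 9.53 ± 0.173 (SD, n = 4) in Parent and between 9.75 and 9.81 in the 4 derivatives, and limma separated none of them from Parent (lowest adjusted p = 0.85). All 4 derivatives thus averaged above Parent, but the overexpression that the labels give was not established in this row. The adjusted p does not show that it was absent, and the lines are called below by their labels. Of the melanocytic markers, SOX10 averaged 9.34 ± 0.118 (SD, n = 4) in Parent and 9.35 ± 0.151 in NME1-E5A. The mean level of the melanocytic list was lower, between 6.16 and 6.53 over all arrays, near the array medians. The melanocytic list (7 of 9 genes measured) and the lists for leukocytes (4 of 5), epithelium (4 of 5), fibroblasts (5 of 5) and endothelium (4 of 4) held no gene that changed between any pair of lines. At an unadjusted p under 0.05, limma picked at most 2 genes of any of these lists in a comparison, while 1.29% to 4.11% of all features met that limit, depending on the comparison. The mean level of the leukocyte list lay between 3.83 and 4.93 over all arrays.

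Members of the family are single-pass membrane proteins that bind ligands through cysteine-rich repeats, carry them into the cell by way of motifs in the cytoplasmic tail, and need a chaperone in the secretory pathway to fold. They fall into groups by role. VLDLR and LRP8 (ApoER2) bind apolipoprotein E and reelin and pass the reelin signal to the adaptor DAB1, and VLDLR also takes up triglyceride-rich lipoproteins in muscle and fat. LRP1, LRP1B and LRP2 (megalin) are giant endocytic receptors, of which LRP1 clears proteases and their inhibitors, LRP1B is often deleted or mutated in tumours, and LRP2 recovers filtered proteins in the kidney. LRP5 and LRP6 are co-receptors for Wnt ligands. LRP12 is a smaller relative whose role is less well described.

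VLDLR is a known target of hypoxia-inducible factors, and the sequence around its start is shown because VLDLR was the member with the widest range between lines, next to that of LRP8, its closest relative by role, which had the narrowest. Both run 5′ to 3′ on the strand of the gene, from 250 bases before to 50 bases after the start that RefSeq gives on GRCh38.p14. VLDLR lies at chr9:2621537-2621836 on the plus strand and LRP8 at chr1:53328021-53328320 on the minus strand. Capitals mark each GCGTG, read on either strand (CACGC on the printed one), the core of the hypoxia response element in one of its forms.
VLDLR: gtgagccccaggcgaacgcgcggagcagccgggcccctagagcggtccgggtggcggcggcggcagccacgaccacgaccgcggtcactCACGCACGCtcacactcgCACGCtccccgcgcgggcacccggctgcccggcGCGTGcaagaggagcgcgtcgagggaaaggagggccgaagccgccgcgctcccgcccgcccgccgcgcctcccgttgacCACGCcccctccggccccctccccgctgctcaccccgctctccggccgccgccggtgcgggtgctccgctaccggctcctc
LRP8: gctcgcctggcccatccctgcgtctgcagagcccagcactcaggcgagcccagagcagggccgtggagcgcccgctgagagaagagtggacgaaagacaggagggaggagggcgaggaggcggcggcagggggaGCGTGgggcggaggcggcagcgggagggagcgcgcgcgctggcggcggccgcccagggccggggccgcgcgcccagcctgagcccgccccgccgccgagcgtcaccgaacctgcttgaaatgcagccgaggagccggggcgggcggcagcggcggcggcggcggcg

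The VLDLR window held 5 matches to GCGTG, 2 of them overlapping, and the LRP8 window held 1. Of 35116 windows of this length over all genes, 36.5% held at least 1 match. Neither window held ACGTG, the other form of the core, which 21.4% of all windows held. GC content was 79% for VLDLR and 78.3% for LRP8, against a median of 58.7% over all windows. GGGCGG, the core of a GC box, matched 2 times in VLDLR and 5 times in LRP8, and 45% of all windows held it. Windows were also searched for LRP1, LRP2 and LRP5, and LRP12 was not searched. LRP2 had 5 matches to GCGTG, and LRP1 and LRP5 had 0. A sterol response element and an amino acid response element, each searched on both strands, were in none of these 5 windows, and in 0.0456% and 0.866% of all windows. A match says only that these letters are there, and factor binding was not measured.

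VLDLR was highest in NME1-E5A. Its 4 arrays read 7.60, 7.72, 7.70 and 7.65. In Parent the arrays read 6.66, 6.30, 6.41 and 6.59, and in NME1-wild-type 6.63, 6.81, 6.79 and 6.85. All 4 NME1-E5A arrays stood above the 16 arrays of the other lines, of which the highest read 6.91, and 0.354% of all features had every NME1-E5A array above every other array, a share from which nothing is read because VLDLR was chosen on these arrays. In NME1-K12Q the values were 6.82, 6.71, 6.77 and 6.91, a narrow group. In NME1-P96S they were 6.85, 6.87, 6.20 and 6.57, which spans nearly the whole range of the lines other than NME1-E5A.

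The VLDLR means were 7.67 ± 0.0536 (SD, n = 4) in NME1-E5A, 6.80 ± 0.086 in NME1-K12Q, 6.77 ± 0.0967 in NME1-wild-type, 6.62 ± 0.312 in NME1-P96S and 6.49 ± 0.163 in Parent. Below NME1-E5A, each step down this order was smaller than the larger SD of the neighbouring lines. NME1-E5A exceeded Parent by 1.17 on the log2 scale (2.26-fold) and NME1-wild-type by 0.90, and the difference from NME1-E5A was -0.86 for NME1-K12Q and -1.04 for NME1-P96S. The 3 pairs that the choice of VLDLR did not use gave no call. NME1-K12Q minus NME1-wild-type was 0.03 (95% interval -0.24 to 0.31, limma adjusted p = 1). NME1-P96S minus NME1-wild-type was -0.15 (-0.42 to 0.13, adjusted p = 0.999), and NME1-P96S minus NME1-K12Q was -0.18 (-0.46 to 0.10, adjusted p = 1). The intervals do not show that the 3 lines were alike. NME1-wild-type minus Parent was 0.28, NME1-K12Q minus Parent 0.31 and NME1-P96S minus Parent 0.13.

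**Figure D1:**
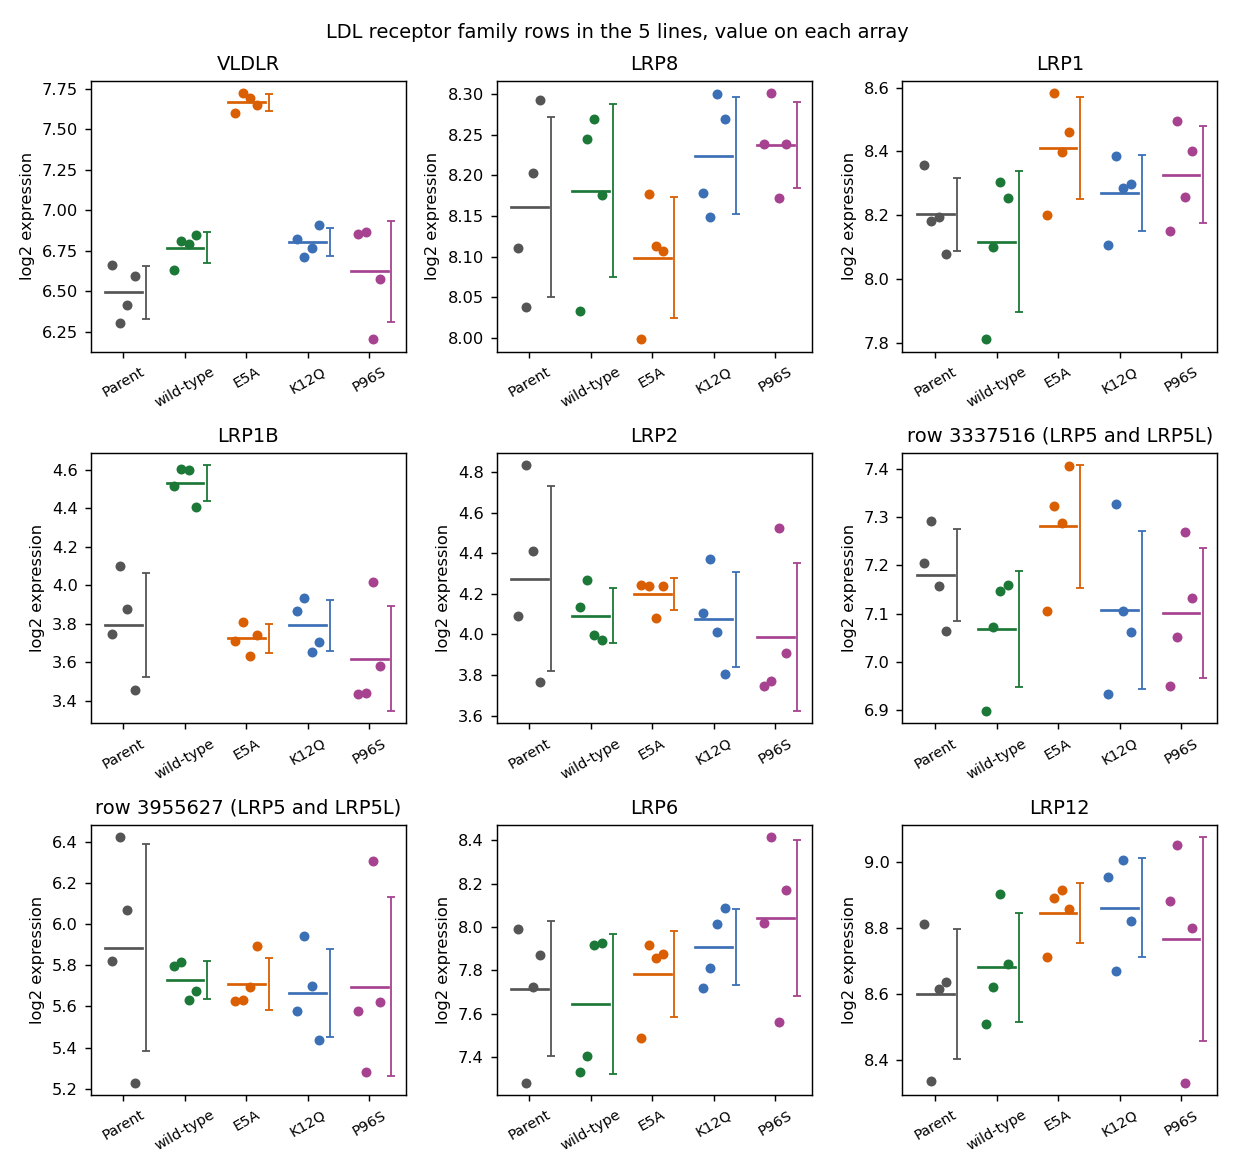
Log2 expression (y axis) of the member rows in each of the 5 lines (x axis), 1 point per array and 4 arrays per line, with a bar at the line mean and its SD beside it. Each panel has its own y range. The NME1-E5A points for VLDLR sit between 7.60 and 7.72, above all other arrays, and the NME1-wild-type points for LRP1B sit between 4.41 and 4.60, above all others.

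LRP8, the other reelin receptor, gave no call in any comparison. Its arrays read 8.11, 8.04, 8.20 and 8.29 in Parent and 7.998, 8.18, 8.11 and 8.11 in NME1-E5A. In NME1-wild-type they ran from 8.03 to 8.27, in NME1-K12Q from 8.15 to 8.30 and in NME1-P96S from 8.17 to 8.30, so all 5 lines overlapped. The line means of LRP8 ran from 8.10 ± 0.0742 (SD, n = 4) in NME1-E5A to 8.24 ± 0.0528 in NME1-P96S, a range narrower than that of most features (14.3% were narrower still). NME1-E5A minus NME1-wild-type was -0.08 for LRP8 (95% interval -0.28 to 0.12, limma adjusted p = 1).

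LRP1B was highest in NME1-wild-type. Its arrays there read 4.51, 4.60, 4.60 and 4.41. In Parent they read 3.75, 4.10, 3.88 and 3.45, and in NME1-E5A 3.71, 3.81, 3.63 and 3.74. The NME1-K12Q arrays read 3.87, 3.94, 3.65 and 3.71, and the NME1-P96S arrays 3.44, 3.44, 4.02 and 3.58. The lowest NME1-wild-type array thus exceeded each of the 16 others, of which the highest, at 4.10, was Parent replicate 2. Over all features, 0.049% had every NME1-wild-type array above every other array.

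LRP1B was a dim row, with 9.18% of features dimmer on average. Its mean was 4.53 ± 0.0928 (SD, n = 4) in NME1-wild-type, 3.79 ± 0.269 in Parent, 3.79 ± 0.133 in NME1-K12Q, 3.72 ± 0.0739 in NME1-E5A and 3.62 ± 0.273 in NME1-P96S. The mean in NME1-wild-type lay within the range of the leukocyte list (3.83 to 4.93), and those of the other 4 lines lay below it. None of these levels was shown to stand above background, so the differences are those of the deposited values and no fold is given. NME1-E5A minus NME1-wild-type was -0.81 on the log2 scale (SE 0.142, limma adjusted p = 0.0138). NME1-P96S minus NME1-wild-type was -0.91 (SE 0.142, limma adjusted p = 0.00372). The difference of NME1-wild-type from Parent was 0.74 (SE 0.142) and did not pass (limma adjusted p = 0.0934), nor did that of NME1-K12Q from NME1-wild-type at -0.74 (adjusted p = 0.0998). The call against NME1-E5A was lost when 1 of 4 arrays was left out, namely NME1-wild-type replicate 2 (limma adjusted p = 0.0665) or 3 (0.0595), or NME1-E5A replicate 1 (0.0501) or 3 (0.0837). The difference from Parent passed once replicate 2 of Parent (limma adjusted p = 0.0202) or replicate 3 of NME1-P96S (0.0169) was left out, and also after centring of each array (0.76, adjusted p = 0.00885) or quantile normalisation (0.82, adjusted p = 1.33e-05). That of NME1-K12Q from NME1-wild-type passed without Parent replicate 2 (limma adjusted p = 0.0332) or 4 (0.0436) or NME1-P96S replicate 3 (0.0142), with centring (0.0183) and with quantile normalisation (0.000114). Neither of these differences passed with only the 8 arrays compared or with a replicate block (limma adjusted p = 0.126 for NME1-wild-type against Parent). Nor did they pass in the other fits with an array left out (limma adjusted p up to 0.576 against Parent and 0.433 for NME1-K12Q). The call against NME1-P96S was lost when only the 8 arrays of those 2 lines were fitted (limma adjusted p = 0.169).

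Part of the spread within lines went with the spread of the whole array. After each line's mean was subtracted, the correlation with the array's interquartile range over the 20 arrays was 0.86 for VLDLR and -0.93 for LRP1B. Both are descriptions over arrays that share lines. It was -0.97 for LRP2, -0.95 for 3955627 and -0.60 for 3337516, which read higher on narrow arrays, and 0.71 for LRP6, 0.74 for LRP12 and 0.58 for LRP8, which read lower on them, while LRP1 stood at 0.02. The lowest VLDLR value of all, 6.20, came from NME1-P96S replicate 3, and the lowest of Parent, 6.30, from Parent replicate 2, the narrowest arrays of their lines. With the interquartile range as a covariate, VLDLR in NME1-E5A exceeded Parent by 1.11, and LRP1B in NME1-wild-type exceeded Parent by 0.80 (limma adjusted p = 3.33e-06). With that covariate the LRP1B difference was -0.75 for NME1-K12Q against NME1-wild-type (adjusted p = 1.93e-05), -0.80 for NME1-E5A against NME1-wild-type (adjusted p = 1.48e-06) and -0.84 for NME1-P96S against it (adjusted p = 4.17e-07). What set the spread of the arrays was not tested.

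**Figure D2:**
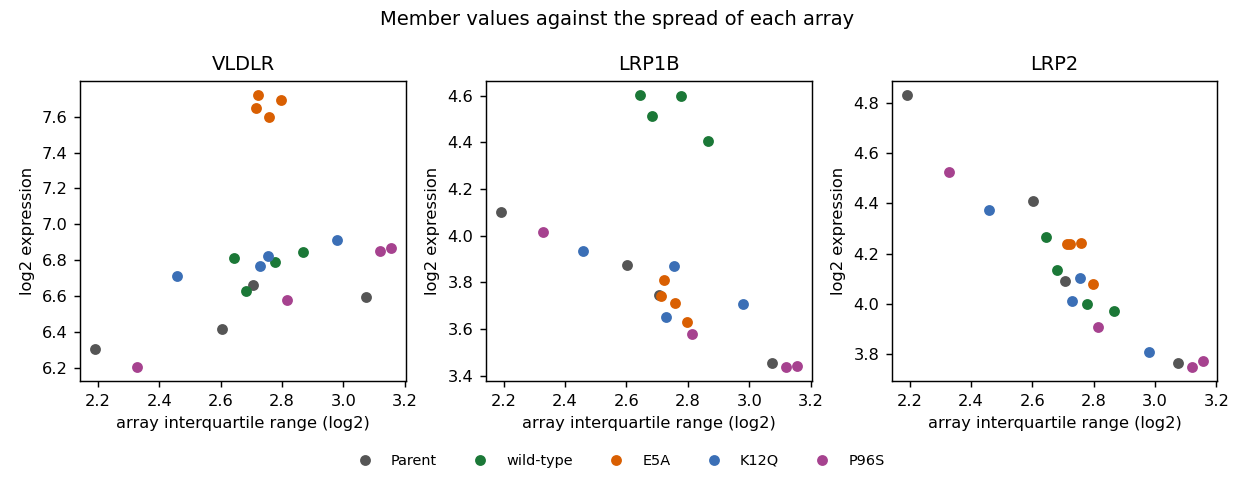
Log2 expression of VLDLR, LRP1B and LRP2 (y axis) against the interquartile range of each array in log2 units (x axis), 1 point per array, coloured by line. For LRP1B the values fall as the range widens within lines (r = -0.93 after line means were subtracted), and the NME1-wild-type arrays lie above the rest at similar ranges.

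The other giant receptors gave no call. LRP1 averaged 8.20 ± 0.115 (SD, n = 4) in Parent, 8.12 ± 0.222 in NME1-wild-type, 8.41 ± 0.16 in NME1-E5A, 8.27 ± 0.118 in NME1-K12Q and 8.33 ± 0.153 in NME1-P96S. Its widest difference, 0.29 for NME1-E5A against NME1-wild-type, had an unadjusted p = 0.0313 and a limma adjusted p = 1. LRP2 averaged between 3.99 ± 0.366 (SD, n = 4) in NME1-P96S and 4.28 ± 0.456 in Parent. Within Parent alone the LRP2 arrays read 4.09, 4.83, 4.41 and 3.77, a wider range than that between any of the line means.

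The Wnt co-receptors gave no call either. LRP6 read 7.99, 7.28, 7.72 and 7.87 in Parent and 8.02, 8.42, 7.56 and 8.17 in NME1-P96S, so the groups overlapped. Its widest difference was 0.40 for NME1-P96S against NME1-wild-type (95% interval 0.00 to 0.80, limma adjusted p = 0.999). Row 3337516 (LRP5 with LRP5L) averaged between 7.07 ± 0.12 (SD, n = 4) in NME1-wild-type and 7.28 ± 0.127 in NME1-E5A. Row 3955627, with the same symbols, averaged between 5.67 ± 0.215 in NME1-K12Q and 5.89 ± 0.503 in Parent, so the rows differ in which line stood highest. LRP12 averaged 8.60 ± 0.196 (SD, n = 4) in Parent, 8.68 ± 0.165 in NME1-wild-type, 8.85 ± 0.0909 in NME1-E5A, 8.86 ± 0.15 in NME1-K12Q and 8.77 ± 0.309 in NME1-P96S. Over LRP8, LRP1, LRP2, LRP6, LRP12 and both LRP5 rows, none of 70 tests passed in limma (1 had an unadjusted p under 0.05), and the differences ran from -0.29 to 0.40.

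**Figure D3:**
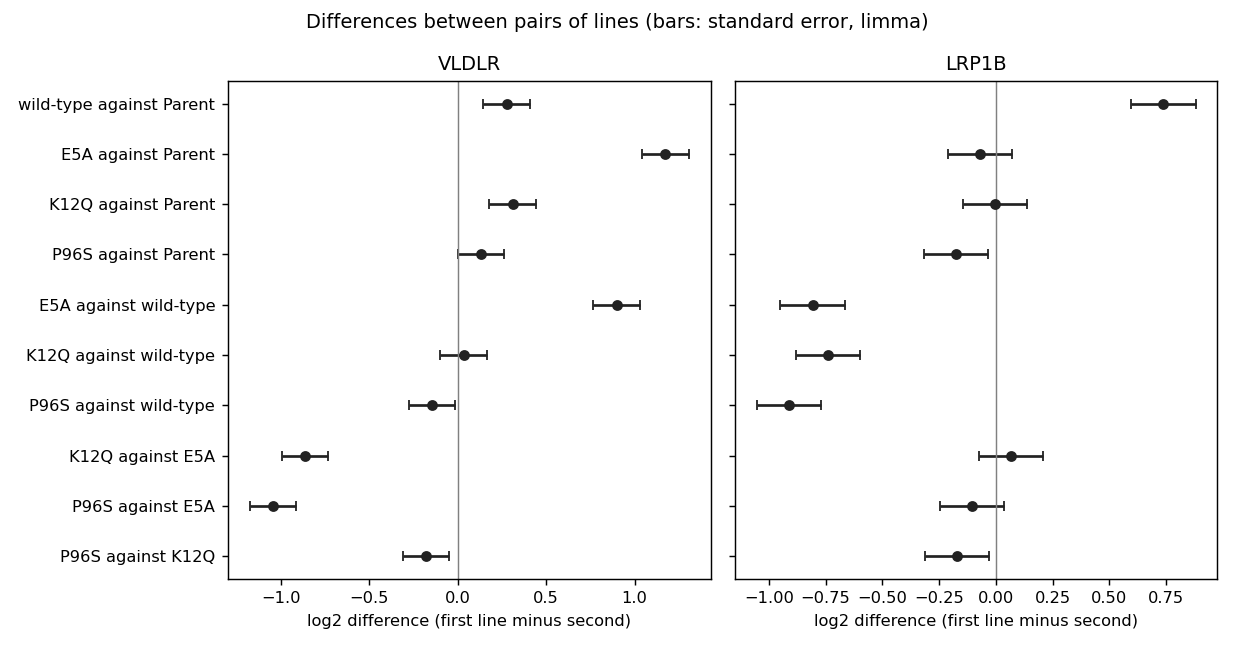
Log2 difference between lines, first minus second (x axis), for VLDLR and LRP1B in the 10 pairwise comparisons (y axis), with bars for the standard error of the limma fit. The 4 VLDLR differences that involve NME1-E5A and the 4 LRP1B differences that involve NME1-wild-type lie farthest from 0.

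A row was counted as changed when its limma adjusted p was under 0.05 and its fold at least 1.5, which is the meaning of rose, fell and changed throughout. VLDLR, on which the set was chosen, is left out of the counts that follow, which are over the other 8 rows. For NME1-E5A against NME1-wild-type, 1 of 8 rows met this (LRP1B, lower) beside 0.207% of all features. For NME1-P96S against NME1-wild-type it was also LRP1B, lower, beside 0.201%. None of the 8 rows was counted for NME1-E5A against Parent (background 0.218%), NME1-wild-type against Parent (0.0326%), NME1-K12Q against Parent (0.00544%) or NME1-P96S against Parent (0.103%). None was counted either for NME1-K12Q against NME1-wild-type (0.0381%), NME1-K12Q against NME1-E5A (0.169%), NME1-P96S against NME1-E5A (0.239%) or NME1-P96S against NME1-K12Q (0.277%). At an unadjusted p under 0.05 in limma, these 8 comparisons without a call had LRP1B alone for NME1-wild-type against Parent (1.38% of all features) and for NME1-K12Q against NME1-wild-type (1.29%), and 0 rows in each of the other 6. The shares of all features at that limit were 2.98% for NME1-E5A, 1.48% for NME1-K12Q and 3.14% for NME1-P96S against Parent, 2.79% for NME1-K12Q and 4.11% for NME1-P96S against NME1-E5A, and 3.12% for NME1-P96S against NME1-K12Q. In the comparisons with a call, LRP1 joined LRP1B at that limit for NME1-E5A against NME1-wild-type (2.4%), and LRP1B stood alone for NME1-P96S against NME1-wild-type (3.39%). Tested against a fold of 1.5 with limma's treat, none of the 8 rows passed in any comparison (LRP1B had an unadjusted p under 0.05 for NME1-P96S against NME1-wild-type). Comparisons that share a line share its arrays and are not independent of each other.

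Separation of the arrays gave a longer list. LRP1B had all NME1-wild-type arrays above all Parent arrays (0.827% of all features did not overlap in that comparison) and above all NME1-K12Q (1.34%), NME1-P96S (1.83%) and NME1-E5A arrays (3.3%). As a description of the arrays VLDLR was chosen on, it did not overlap between NME1-E5A and NME1-wild-type either, nor between NME1-E5A and Parent (1.99%), NME1-K12Q (3.54%) or NME1-P96S (3.01%). NME1-K12Q and Parent also did not overlap for VLDLR (1.17%), with 6.71 as the lowest NME1-K12Q array and 6.66 as the highest Parent array. No member was apart between NME1-P96S and Parent (1.23%) or between NME1-P96S and NME1-K12Q (2.22%).

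Most genes that work with these receptors gave no call. Of the other family genes, 5 of 9 were measured and none changed, among them LDLRAD3 at 8.48 ± 0.033 (SD, n = 4) in Parent and 8.52 ± 0.148 in NME1-E5A. Ligands (13 of 16 measured) included the abundant thrombospondins THBS1, at 12.90 ± 0.161 in Parent and 12.85 ± 0.123 in NME1-E5A, and THBS2, at 11.83 ± 0.315 and 12.05 ± 0.131, and none changed. Genes for folding, adaptors, shedding and turnover (12 of 17) and for reelin signalling (14 of 19), such as the actin-severing protein CFL1, gave no call. In limma, at most 3 ligand genes, 0 folding and turnover genes, 1 reelin gene and 1 other family gene had an unadjusted p under 0.05 in any 1 comparison. The 3 ligand genes were in NME1-E5A against NME1-wild-type (2.4% of all features) and in NME1-P96S against NME1-E5A (4.11%). The median differences of these 4 lists lay between -0.16 and 0.10. Single genes differed by up to 0.76 in size among ligands, 0.58 in reelin signalling, 0.33 in folding and turnover and 0.32 among other family genes. Lipid uptake and storage (17 of 19 measured, FABP7 and PLIN3 the brightest) and sterol-regulated genes (10 of 13, with DHCR7 and INSIG1) also had no gene past both limits, with at most 5 and 4 genes at an unadjusted p under 0.05, in both cases for NME1-P96S against NME1-E5A (4.11% of all features). All 10 sterol-regulated genes were above 0 for NME1-P96S against Parent, with a median of 0.17 against -0.06 over all features, and against NME1-wild-type, with 0.25 against -0.04. Against NME1-E5A and NME1-K12Q, 8 of 10 were above 0, with medians of 0.27 and 0.29 against -0.03 and -0.02. At an unadjusted p under 0.05, limma picked 1 of the 10 against Parent (3.14% of all features) and 2 against NME1-wild-type (3.39%). It picked 4 against NME1-E5A (4.11%) and 3 against NME1-K12Q (3.12%). These comparisons share the NME1-P96S arrays. DHCR7, the last enzyme of cholesterol synthesis, had a difference of 0.57 for NME1-P96S against NME1-E5A (limma adjusted p = 0.00515) and 0.49 against NME1-wild-type (adjusted p = 0.0266), both under the fold limit.

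Among the Wnt and agrin partners (19 of 21 measured), DKK1 and FZD4 changed. For NME1-P96S, 0.201% of all features changed against NME1-wild-type, 0.277% against NME1-K12Q and 0.239% against NME1-E5A. For NME1-E5A against Parent the share was 0.218%. DKK1, a secreted inhibitor that binds LRP5 and LRP6, averaged 8.25 ± 0.487 (SD, n = 4) in NME1-P96S, 9.51 ± 0.357 in NME1-wild-type and 9.51 ± 0.25 in NME1-K12Q. Its difference was -1.26 for NME1-P96S against NME1-wild-type (limma adjusted p = 0.0217) and also -1.26 against NME1-K12Q (adjusted p = 0.0168). With arrays left out singly these DKK1 calls were lost in 5 and 4 of 20 fits, each time an array of the lines compared, with adjusted p up to 0.141 and 0.0856. FZD4, a Wnt receptor, was higher in NME1-P96S (7.40 ± 0.0727) than in NME1-E5A (6.45 ± 0.0656) by 0.95 (adjusted p = 0.000114), a call kept in all 20 such fits. The FZD4 mean in Parent was 7.05 ± 0.159, and NME1-E5A minus Parent was -0.60. CTNNB1, the Wnt effector beta-catenin, and DKK3 gave no call.

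Hypoxia-responsive genes (17 of 20 measured) stood higher in NME1-E5A than in Parent, the comparison behind the choice of VLDLR, so their values are given as a description. Their median difference was 0.56 against -0.04 over all features, and 16 of 17 were above 0. Beside 0.218% of all features, 3 of the 17 passed the limits. These were PDK1, a kinase that restrains mitochondrial pyruvate use (1.32), BNIP3, a mitophagy receptor (1.13), and INSIG2, a regulator of sterol synthesis (1.06). With arrays left out singly, PDK1 and BNIP3 passed in all 20 fits and INSIG2 in 15. The INSIG2 losses came from 3 Parent arrays (replicates 1, 2 and 3) and from replicates 1 and 3 of NME1-E5A (limma adjusted p up to 0.0969). Nothing is read from these passes, because the list was written with earlier results of these data known. In the comparisons with the other lines the BNIP3 difference was -0.83 for NME1-K12Q against NME1-E5A (limma adjusted p = 0.0252) and -0.87 for NME1-P96S against NME1-E5A (adjusted p = 0.0124). With arrays left out singly the first was lost in 8 of 20 fits, when any array of NME1-K12Q or NME1-E5A was absent (adjusted p up to 0.13), and the second without NME1-E5A replicate 1 or 3 or NME1-P96S replicate 4 (up to 0.0808). The median of the list was 0.48 for NME1-E5A against NME1-wild-type, where none passed, against -0.01 over all features. For NME1-K12Q and NME1-P96S against NME1-E5A it was -0.38 and -0.37, against -0.0007 and -0.03. At an unadjusted p under 0.05, limma picked 12 of 17 for NME1-E5A against Parent (2.98% of all features) and 11 against NME1-wild-type (2.4%). It picked 7 for NME1-K12Q (2.79%) and 9 for NME1-P96S (4.11%) against NME1-E5A. All these comparisons share the NME1-E5A arrays on which VLDLR was chosen. NDRG1 and HIF1A, the other named genes of the list, gave no call.

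In the integrated stress response list (10 of 10 measured), SLC7A11, the cystine transporter subunit, was the 1 gene that changed. It averaged 7.10 ± 0.412 (SD, n = 4) in NME1-P96S and 8.40 ± 0.469 in Parent, a difference of -1.30 (limma adjusted p = 0.0155). NME1-P96S differed by -1.77 from NME1-wild-type (adjusted p = 0.000289), by -1.25 from NME1-E5A (adjusted p = 0.00913) and by -2.34 from NME1-K12Q (adjusted p = 2.26e-05). The calls against NME1-wild-type and NME1-K12Q were kept in all 20 fits with an array left out. That against Parent was lost without replicate 1, 3 or 4 of Parent or replicate 4 of NME1-P96S (adjusted p up to 0.0944), and that against NME1-E5A without NME1-E5A replicate 3 or NME1-P96S replicate 4 (up to 0.059). SLC7A11 in NME1-K12Q exceeded NME1-E5A by 1.08 (adjusted p = 0.0427), a call kept in only 6 of the 20 fits. ATF4 and PSAT1 gave no call. The median difference of the list lay between -0.09 and 0.02 in all comparisons. For NME1-P96S, 0.103% of all features changed against Parent, 0.201% against NME1-wild-type, 0.239% against NME1-E5A and 0.277% against NME1-K12Q. For NME1-K12Q against NME1-E5A the share was 0.169%.

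The genes whose pattern was most like that of VLDLR were ranked by Pearson r over the 20 arrays among 14404 genes, as a description with no test. The 10 highest were NRN1 (0.92), ENO2 (0.91), AK4 (0.91), STC1 (0.90), B4GALT6 (0.90), RNF128 (0.90), ENC1 (0.90), BNIP3 (0.89), RNF122 (0.88) and MME (0.87). NRN1, a small neuronal surface protein, averaged 10.02 ± 0.182 (SD, n = 4) in NME1-E5A and 8.67 ± 0.27 in Parent. ENO2, a glycolytic enolase, averaged 8.95 ± 0.0909 and 7.65 ± 0.204 in these lines, and AK4, a mitochondrial adenylate kinase, 8.90 ± 0.0885 and 7.36 ± 0.557. All 10 had their highest line mean in NME1-E5A, which follows largely from choosing them by likeness to VLDLR, itself highest there. The ranking rests on the difference between lines: after line means were subtracted, r fell to between 0.14 (ENO2) and 0.79 (STC1), and none of the 10 remained among the 10 highest. By Spearman's rho, 4 of the 10 remained. The lowest were VIPR1 (-0.87), AGFG2 (-0.82), CYP1A1 (-0.82) and SYT6 (-0.80). VIPR1, a receptor for vasoactive intestinal peptide, averaged 7.39 ± 0.0846 in NME1-E5A and 8.65 ± 0.294 in Parent.

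**Figure D4:**
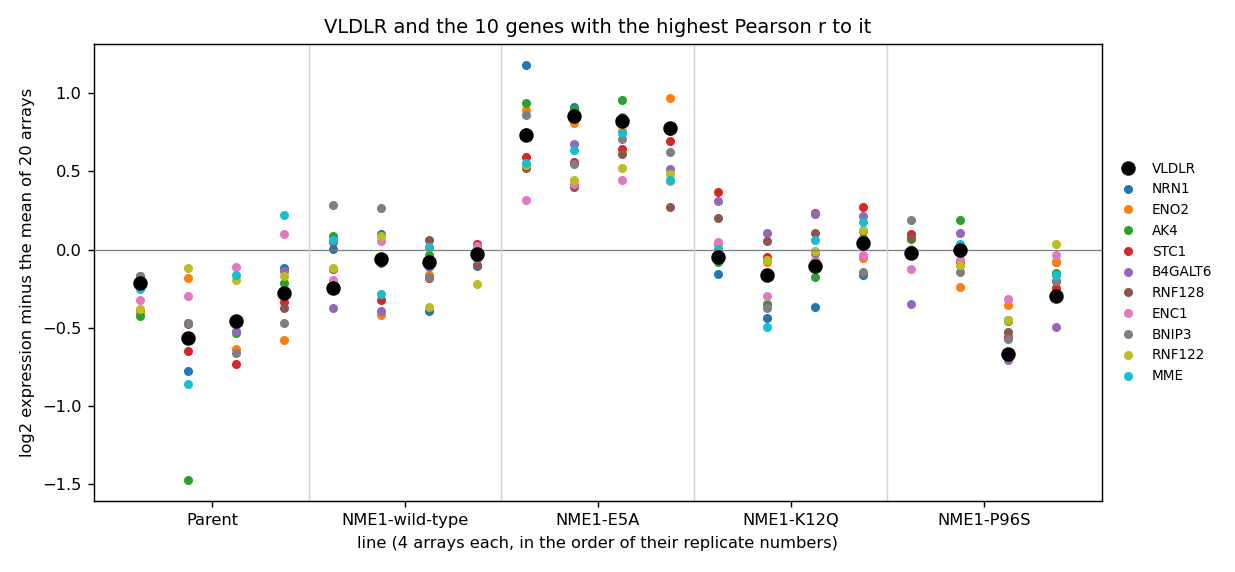
Log2 expression minus the mean of the 20 arrays (y axis) for VLDLR and the 10 genes with the highest Pearson r to it, by line (x axis, 4 arrays each, 1 point per gene and array). All NME1-E5A points lie above 0, which follows largely from choosing the genes by likeness to VLDLR. The lowest point belongs to AK4 in a Parent array.

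The genes next to VLDLR and LRP1B gave no call. They were chosen after the values of the members had been seen, as the 3 nearest protein-coding genes on each side that had a row of their own. Around VLDLR on chromosome 9 these were DMRT3, DMRT2 and SMARCA2 before it and KCNV2, PUM3 and RFX3 after it. None of their 60 tests passed in limma, none had an unadjusted p under 0.05, and the differences lay between -0.36 and 0.45. Around LRP1B on chromosome 2 they were HNMT, SPOPL and NXPH2 before it and KYNU, ARHGAP15 and QTMAN after it, and none of 60 tests passed (3 had an unadjusted p under 0.05). KYNU, an enzyme of tryptophan breakdown, was 8.21 in NME1-wild-type and 7.69 in Parent, a difference of 0.52 (SE 0.267, limma adjusted p = 0.997). KYNU also stood above Parent in NME1-K12Q (0.60), NME1-E5A (0.42) and NME1-P96S (0.30), so this was not particular to NME1-wild-type.

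**Figure D5:**
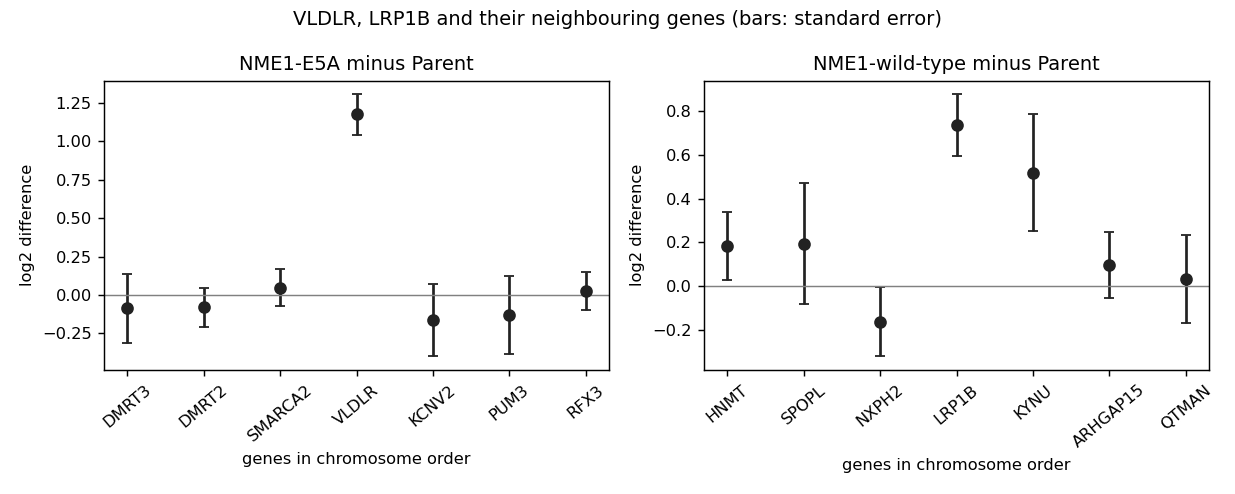
Log2 difference between lines (y axis) for VLDLR and LRP1B and their 3 nearest measured genes on each side, in order along the chromosome (x axis), with bars for the standard error of the limma fit. VLDLR at 1.17 (NME1-E5A against Parent) and LRP1B at 0.74 (NME1-wild-type against Parent) stand above their neighbours, of which KYNU, beside LRP1B, is the highest at 0.52.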

How the data were processed

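Gene expression was measured on 20 exon arrays, 4 for each of 5 lines, and titles gave the line and replicate number. The authors deposited log2 expression values normalised by RMA in R, as stated per the labels and the submitters' processing notes. The notes also name limma, with no version. Genome build and annotation: not given in the sources used here. RMA draws the arrays to a common scale, yet the deposited arrays still differed in interquartile range. Detection calls were not used here, so a dim row such as LRP1B has no measured floor, and the number of arrays limits precision.

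Of 18708 rows, 14735 had 1 symbol in the platform annotation, 2873 had several and 1100 were not listed. Where several rows named 1 gene, the brightest stood for it, which left out 324 rows. In limma 3.58.1 (R 4.3.3; lmFit and eBayes), each line received its own mean from all 20 arrays, leaving 15 residual degrees of freedom. Each of the 10 pairs of lines was tested two-sided, with Benjamini-Hochberg adjustment over 18384 features. The script was tested on simulated data. Promoter windows and neighbouring genes come from RefSeq tables of GRCh38.p14.

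The members and gene lists were chosen with earlier results of these data known. Genes named are the members, list genes that changed (at most 4 for a list and comparison) with the 2 brightest that did not, and the 10 genes most and 4 least like VLDLR. Alternatives were array centring, quantile normalisation, fitting only the lines compared, a replicate block, the interquartile range as a covariate, a filter on dim features, all rows kept, other call rules, other measures of likeness and leaving out arrays. Protein features of the members were planned and not run.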

Additional observations from a re-analysis of the deposited data

Results flagged for a closer look

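In 45 sets of 4 arrays (9 rows in 5 lines), 2 had an array far from the other 3 by Dixon's criterion, which chance meets in about 1 of 20 sets. LRP2 read 4.08 in NME1-E5A replicate 3, while the other NME1-E5A arrays all read 4.24. LRP6 read 7.49 in NME1-E5A replicate 1, against 7.86 to 7.92 in the other arrays of that line.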

How the results depend on the processing

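The VLDLR differences that involve NME1-E5A kept their direction under every alternative run. Nothing is read from this, because VLDLR was chosen on these arrays. The near-zero difference of NME1-K12Q from NME1-wild-type in VLDLR (0.03) ran from -0.012 to 0.066 when arrays were left out singly. That of NME1-K12Q from Parent in LRP1B (-0.0032) was 0.040 with centring, 0.085 with quantile normalisation, 0.056 with the interquartile range as a covariate, 0.0505 without the 3 narrowest arrays and 0.099 without Parent replicate 2 and NME1-P96S replicate 3 (chosen after seeing the data), and ran from -0.12 to 0.099 with arrays left out singly.

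The counts of member rows changed are here over all 9 rows, and nothing is read from VLDLR in those with NME1-E5A, on which it was chosen. The count rose from 0 to 1 (LRP1B) for NME1-wild-type against Parent and for NME1-K12Q against NME1-wild-type under each of those 5 settings, and was 0 to 1 with arrays left out singly. For NME1-E5A against NME1-wild-type it was 1 with dim features removed, 0 with treat, and 1 to 2 with arrays left out singly. For NME1-P96S against NME1-wild-type it was 0 with only the 8 arrays compared, 0 with dim features removed (LRP1B was itself removed) and 0 with treat. It was 0 with treat for NME1-E5A against Parent, for NME1-K12Q against NME1-E5A and for NME1-P96S against NME1-E5A, and 0 for the last with only 8 arrays. With quantile normalisation, 2 members in place of 1 did not overlap between NME1-K12Q and NME1-E5A. The cause was not tested.

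List genes changed numbered 4 for NME1-E5A against Parent and 9 with the covariate, 0 and 1 for NME1-K12Q against Parent, and 1 and 2 for NME1-P96S against Parent (2 also with quantile normalisation). They numbered 0 for NME1-E5A against NME1-wild-type, 3 with quantile normalisation and 6 with the covariate, then 2, 4 and 5 for NME1-K12Q against NME1-E5A and 3, 5 and 10 for NME1-P96S against NME1-E5A. With arrays left out singly (chosen after seeing the data) the counts ran from 2 to 6 for NME1-E5A against Parent, 0 to 2 for NME1-P96S against Parent, 0 to 1 for NME1-E5A and 1 to 2 for NME1-P96S against NME1-wild-type, 0 to 4 for NME1-K12Q and 1 to 5 for NME1-P96S against NME1-E5A, and 1 to 3 for NME1-P96S against NME1-K12Q. Calls over all features also rose with the covariate, from 40 to 67 for NME1-E5A against Parent and from 38 to 60 against NME1-wild-type. Against Parent they went from 1 to 9 for NME1-K12Q and from 19 to 37 for NME1-P96S. Against NME1-E5A they went from 31 to 61 and from 44 to 87 for these lines. With quantile normalisation they numbered 41 for NME1-E5A against NME1-wild-type, and 36 and 40 for NME1-K12Q and NME1-P96S against NME1-E5A. Of the 10 genes most like VLDLR, 0 remained after line means were subtracted and 4 by Spearman's rho.

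The labels do not say what a replicate number stands for, and the numbers were not taken to pair the arrays because not every same-numbered pair correlated above 0.1 (25 of 40 did, range -0.85 to 0.81). The median r was 0.24 for same-numbered pairs and -0.05 for the others, and 11 of 20 arrays correlated best with their own number, a hint of pairing from the data and not from the design. With the replicate block, counts of members changed were as without it (2 for NME1-E5A against NME1-wild-type). List genes changed numbered 6 for NME1-E5A against Parent, 2 for NME1-P96S against Parent, 2 for NME1-E5A against NME1-wild-type, 3 for NME1-K12Q against NME1-E5A and 6 for NME1-P96S against NME1-E5A. Over all features the block gave 46, 21, 40, 37 and 57 calls in these comparisons, against 40, 19, 38, 31 and 44 without it. Among list genes the block kept 13 calls, added 10 and lost 1, SLC7A11 for NME1-K12Q against NME1-E5A (limma adjusted p = 0.0506). Among those added, DKK1 passed for NME1-P96S against Parent (adjusted p = 0.000348) and against NME1-E5A (0.00479), and the others were INSIG2, DDIT4, P4HA2 and HILPDA.

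Over all features, calls for NME1-E5A against Parent numbered 40, from 12 with only 8 arrays to 67 with the covariate, and for NME1-P96S against NME1-E5A 44, from 7 with 8 arrays to 204 without the 3 narrowest arrays. Dim rows limit LRP1B and LRP2. The planned protein comparison was not run.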
